A study of Mus musculus with 3 samples.

Results

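Dendritic cells that carry transcripts of Cd209a were rare among the leukocytes of these tumours. They were chosen by raw counts per cell: at least 2 counts of Cd209a, at least 2 of Flt3, H2-DMb2, Wdfy4 and Kmo summed, none of Xcr1 or Clec9a, at most 1 of Fscn1, fewer than 10 of C1qa, C1qb and C1qc summed, at most 1 of Cd3d, Cd3e and Cd3g summed, and at most 1 of Ncr1 and Klrb1c summed. This rule was met by 57 of 43730 cells, namely 38 of 14393 in the 4-month library, 9 of 14653 in the 12-month library and 10 of 14684 in the 20-month library. They are called Cd209a cells here. The study grafted YUMM1.7, a transplantable mouse melanoma line, under the skin of mice that were 4, 12 or 20 months old, with 500000 cells per injection and 7 mice of each age. All tumours were taken 18 days later, live CD45+ cells were sorted from the digests, and PIP-seq, a droplet method for the 3′ ends of transcripts of single cells, gave 1 library per age. The labels name no strain, sex or treatment, and do not say how the mice of an age contributed to its library. A difference by age is therefore a difference between single libraries and has no replicate check.

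Conventional dendritic cells take up antigen, carry it to lymph nodes and present it to T cells on MHC molecules. Their growth depends on the receptor tyrosine kinase encoded by Flt3. Type 1 cells are known by the chemokine receptor Xcr1 and the dead-cell receptor Clec9a and present antigen to CD8 T cells with particular efficiency, while type 2 cells carry Sirpa and use the transcription factors Irf4 and Klf4 and are known mainly for presentation to CD4 T cells. A mature state, marked by the actin-bundling protein Fscn1 and the lymph-node homing receptor Ccr7, is shared by both types. Cd209a encodes a C-type lectin, a receptor that binds sugars on microbes and cells, and it is expressed by type 2 dendritic cells and also by dendritic cells that arise from monocytes. The gene (ENSMUSG00000031494.7) lies on the minus strand of chromosome 8 at 3743397 to 3748984 of GRCm38 and overlaps no other gene of GENCODE M21. Its relatives Cd209e, Cd209d, Cd209b and Cd209c lie in the same stretch of that chromosome, between 3847965 and 3954746, and none of their annotated transcripts shares a run of 60 bases with one of Cd209a.

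The 3 libraries held 110371225 to 127850782 counts in total, with medians of 6789 to 7411 counts per cell. The Cd209a cells had medians of 7940.5, 7891 and 7077 counts at 4, 12 and 20 months, and their counts summed to 302744, 71707 and 69498. Libraries shared 2 to 4 cell barcodes pairwise, none of them of a Cd209a cell. Among the 6% of cells of each library with the highest Scrublet doublet score were 3 of the 38 Cd209a cells at 4 months and none at the older ages. Levels are given as CPM, the counts of a gene per 1000000 summed counts of a cell group in a library. All intervals are at 95% and reflect only the error of counting. Counts with no stated molecular identifiers may not be independent molecules. At this depth a gene with 0 counts in all Cd209a cells could still be at up to 6.76 CPM, the level of 3 counts.

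The rule's limit on Cd3 transcripts, which encode chains of the T-cell receptor complex, kept different shares of the cells in the 3 libraries. The conditions before it left 91, 76 and 46 cells in the 4-, 12- and 20-month libraries. The Cd3 limit then kept 44, 9 and 10 of these, or 48.4%, 11.8% and 21.7%. Cd3 counts were also frequent in cells of another lineage. In cells with 30 or more C1q counts, which mark macrophages, the Cd3 sum had a median of 2 at 4 months, 5 at 12 months and 3 at 20 months, and 33.0%, 9.25% and 17.7% of these cells had at most 1. Whether the Cd3 counts came from free RNA or from attached or co-captured T cells was not tested. A wider set of cells, with Cd3 sums up to 10 and sums of Ncr1 and Klrb1c up to 3, was therefore added after the data had been seen and held 87, 72 and 44 cells. The 49, 63 and 34 of these that lie outside the rule are disjoint from the Cd209a cells and are called the excluded cells. They were also deeper, with medians of 9062, 11130 and 8132 counts per cell, against 7940.5, 7891 and 7077 in the Cd209a cells.

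**Figure D1:**
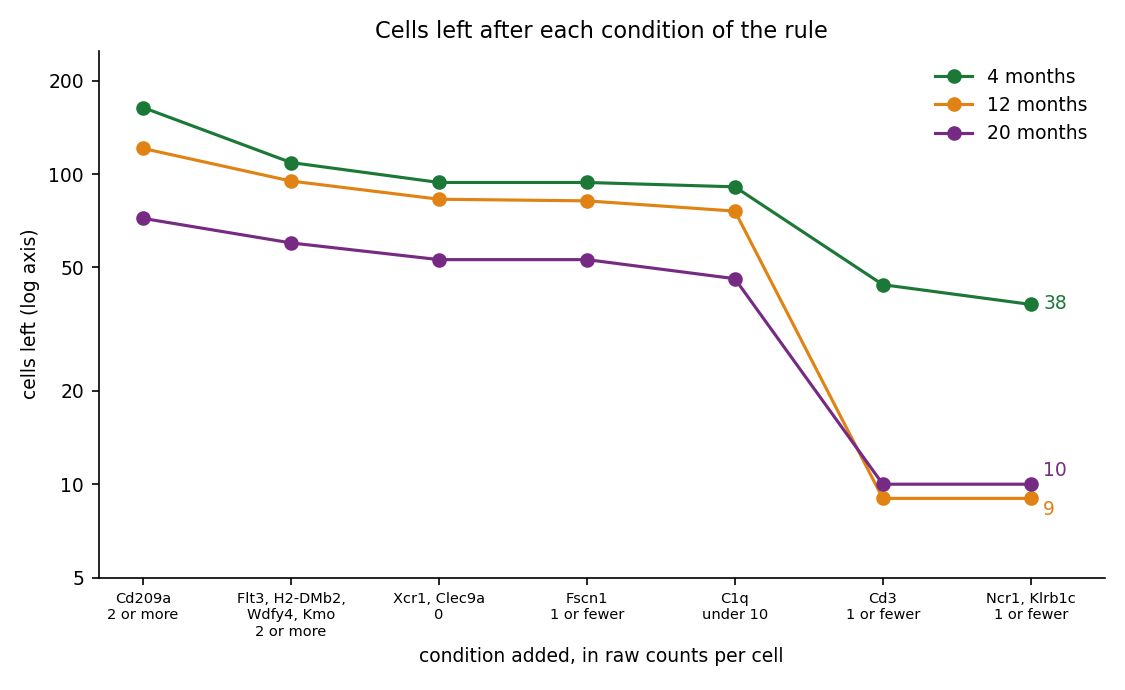
Cells left (log axis) after each condition of the rule was added from left to right, with 1 line per library. The libraries ran in the same order, 4 over 12 over 20 months, down to 91, 76 and 46 cells, and the Cd3 condition then left 44, 9 and 10.

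The values on which the cells were chosen are given as a description. Cd209a ran from 2 to 32 counts per cell at 4 months with a median of 7, from 2 to 25 at 12 months with a median of 8, and from 2 to 16 at 20 months with a median of 4. Its summed level was 1173, 1339 and 863 CPM. Kmo, the kynurenine hydroxylase of tryptophan breakdown, had counts in 44 of the 57 cells and stood at 244, 237 and 187 CPM. Flt3 stood at 89.2, 69.7 and 158 CPM and H2-DMb2, a chain of the peptide editor of the class II pathway, at 149, 293 and 216 CPM. Counts of Flt3 were found in 24 of the 57 cells and of H2-DMb2 in 27. Ffar2, the short-chain fatty acid receptor named as a marker of these cells, was found in 5 of 57 cells, 3 at 4 months and 2 at 20 months. In the excluded cells it stood at 68.8 CPM over the 3 libraries against 24.8 CPM in the Cd209a cells. Close to the threshold, 11 cells had exactly 2 Cd209a counts, and 25 cells met every other condition with only 1. Those 25 cells just outside had Lyz2, the lysozyme of monocytes and macrophages, at 9507 CPM, against 1776 CPM in the 11 cells with 2 counts and 3919 CPM in the 46 cells with 3 or more. Clec10a stood at 43.8 CPM just outside, at 0 counts in the 11 cells and at 291 CPM in the 46.

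The Cd209a cells were compared with 4 other groups of cells from the same libraries, each chosen by counts: 54 Xcr1/Clec9a cells, 96 Fscn1/Ccr7 cells, 1426 C1q-high cells and 963 cells with F13a1, Vcan or Hp, which mark monocytes. Counts of these monocyte genes were not absent from the Cd209a cells, with F13a1 in 22 of the 57, Hp in 11 and Vcan in 4. Counts were summed per library and group and tested with edgeR's quasi-likelihood test with the library as a block, over 6150 genes. A gene was called at an adjusted p (Benjamini-Hochberg over all genes tested) under 0.05 and a difference of at least 2-fold. The genes used to choose any of the groups were not tested. Genes expressed together with them were tested. Differences in the dendritic, class II, monocyte and macrophage lists can therefore follow in part from how the groups were chosen. Against the Xcr1/Clec9a cells 264 genes were higher (4.29%) and 271 lower (4.41%). Against the Fscn1/Ccr7 cells 737 were higher (12%) and 657 lower (10.7%). Against the C1q-high cells 373 were higher (6.07%) and 379 lower (6.16%), and against the F13a1/Vcan/Hp cells 219 were higher (3.56%) and 396 lower (6.44%). The median log2 fold change over all genes tested was between -0.0047 and 0 in all 4 comparisons. The p-values measure how far differences between groups varied across 3 libraries that differ in age. Differences between libraries that all groups share are removed by the block, and the spread was estimated over all 5 groups together. Left without the 4-month library, which holds 38 of the 57 cells, 3843 genes could be tested, and these fits called 105 higher and 86 lower against the Xcr1/Clec9a cells, 337 and 377 against the Fscn1/Ccr7 cells, 169 and 199 against the C1q-high cells, and 102 and 211 against the F13a1/Vcan/Hp cells.

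Genes known from conventional dendritic cells were mostly higher in the Cd209a cells than in both the macrophage and the monocyte group. Of 12 such genes tested, 7 were higher and none lower than in the C1q-high cells, with a median log2 fold change of 1.97, and 7 were higher and 1, Runx3, lower than in the F13a1/Vcan/Hp cells, with a median of 2.04. Zbtb46, a transcription factor largely restricted to conventional dendritic cells among myeloid cells, stood at 46.2, 55.8 and 71.9 CPM in the Cd209a cells of the 3 libraries, from 23 counts in 15 of the 57 cells. It stood at 2.03, 1.37 and 2.79 CPM in the C1q-high cells and at 2.52, 1.88 and 0.684 CPM in the F13a1/Vcan/Hp cells (log2 fold changes 4.58 and 4.64, edgeR adjusted p = 1.48e-07 and 4.05e-07). Bcl11a, a transcription factor of lymphoid and dendritic progenitors, stood at 178, 223 and 101 CPM, above 5.52 CPM in the C1q-high cells (log2 fold change 4.80, edgeR adjusted p = 2.23e-13). Every library of the Cd209a cells was above every library of both groups for Zbtb46 and Bcl11a. Against the Xcr1/Clec9a cells none of the 12 was higher, and Id2, Cd24a and Btla were lower. The calls of Runx3 and of Btla against the Xcr1/Clec9a cells ended without the 4-month library.

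Genes known from type 2 dendritic cells were mostly higher than in the Xcr1/Clec9a cells. Of 13 tested, 7 were higher and 1, Clec12a, was lower, with a median log2 fold change of 1.35. Clec10a, a lectin that binds galactose, stood at 188, 195 and 489 CPM in the Cd209a cells against 34.5 CPM over the libraries in the Xcr1/Clec9a cells (log2 fold change 2.96, edgeR adjusted p = 1.57e-05). Cd7, a surface protein of lymphocytes and some dendritic cells, stood at 429, 432 and 547 CPM against 82.8 CPM (log2 fold change 2.49, edgeR adjusted p = 2.31e-08). In the Cd3-positive cells of the same libraries Cd7 stood at 199 CPM, below every library of the Cd209a cells. Sirpa, the signal-regulatory receptor by which type 2 cells are sorted, stood at 79.3, 153 and 115 CPM against 25.3 CPM (edgeR adjusted p = 0.000871), and the integrin chain Itgam at 82.6, 97.6 and 71.9 CPM against 13.8 CPM (edgeR adjusted p = 0.000545). Klf4 was called higher as well, at 168, 223 and 86.3 CPM against 33.1, 226 and 51.6 CPM, although the 12-month values were level and DESeq2 did not call it. In the F13a1/Vcan/Hp cells Klf4 stood at 180 CPM and was not called. Without the 4-month library Itgam and Klf4 were no longer called against the Xcr1/Clec9a cells. Against the Fscn1/Ccr7 cells 7 of the 13 genes were higher and 2 lower, against the C1q-high cells 5 and 2, and against the F13a1/Vcan/Hp cells 4 and 2. Sirpa was among the 2 genes lower than in the C1q-high cells, and Clec10a and Cd7 were higher in all 4 comparisons.

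Other members of that list were scarce. Irf4 had 7 counts in 6 of the 57 cells and did not enter the test. Esam and Clec4a4, which mark a Notch-dependent part of type 2 cells in spleen, had no counts, nor did Ear2. Mgl2, the close relative of Clec10a, had 19 counts in 7 cells, at 26.4, 55.8 and 101 CPM. It was called higher than in the Xcr1/Clec9a cells (log2 fold change 4.18, edgeR adjusted p = 0.0186), but not without the 20-month library. Even Clec10a was found in only 25 of the 57 cells, 16 of 38, 4 of 9 and 5 of 10. With each cell thinned to 3000 counts, 36.8% of the Cd209a cells had a Clec10a count (24.5 to 50.7), against 12.96% of the Xcr1/Clec9a cells and 1.17% of Cd3-positive cells. Of the 7 cells with Mgl2, 5 also had Clec10a. All of the 6 cells with the chemokine Ccl17 had Kmo and H2-DMb2 counts, and 4 had Clec10a. Of the 51 cells without Ccl17, 38 had Kmo, 21 had H2-DMb2 and 21 had Clec10a. Kmo and H2-DMb2 are genes of the rule, so these overlaps are given as a description only.

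**Figure D2:**
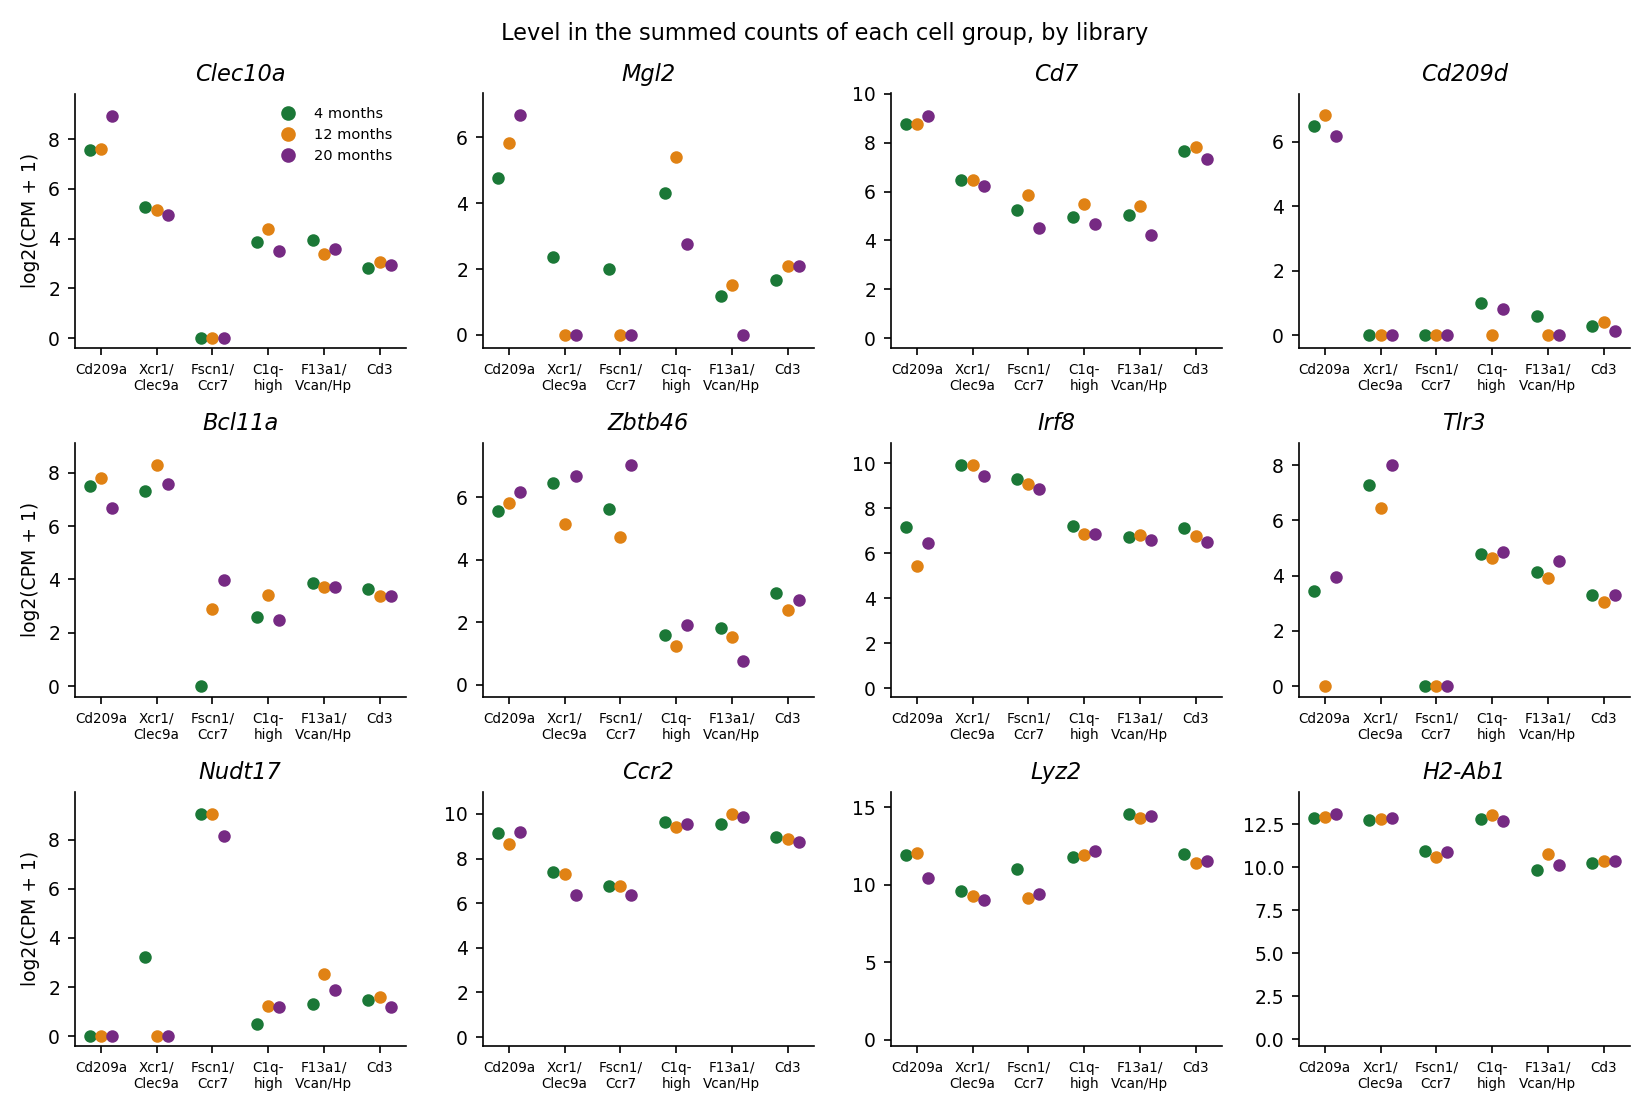
Level of single genes as log2(CPM + 1) in the summed counts of 6 cell groups (horizontal axis), with 1 point per library. Clec10a, Cd7, Cd209d and Zbtb46 in the Cd209a cells lie above the C1q-high and F13a1/Vcan/Hp cells in all 3 libraries, Irf8 and Tlr3 lie below the Xcr1/Clec9a cells, Nudt17 is at 0 counts and Lyz2 lies below the F13a1/Vcan/Hp cells.

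The genes with the largest called differences from the Xcr1/Clec9a cells included Cd209d, a lectin gene of the same family. It stood at 89.2, 112 and 71.9 CPM in the Cd209a cells, held by 12 of the 57, and had no counts in the Xcr1/Clec9a cells, which makes it at least 13.1-fold higher when 3 counts are set for that group. Without the 4-month library Cd209d was no longer called in this comparison. S100a4, a calcium-binding protein of motile cells, stood at 1757, 1966 and 1827 CPM against 116, 17.4 and 221 CPM (log2 fold change 3.85, edgeR adjusted p = 5.81e-16). The membrane proteins Tmem176a and Tmem176b, the chemokine Ccl9, Mcemp1, Nupr1 and the unnamed gene Gm42674 were the others. For Ccl9 the values were 528, 321 and 504 CPM against 53.8, 69.6 and 0 CPM (log2 fold change 3.73, edgeR adjusted p = 1.89e-08). Cd209c, another gene of the family, was also called higher than in the Xcr1/Clec9a cells (20 counts in 13 cells, edgeR adjusted p = 0.0176), a call that ended when any 1 library was left out. Counts of both Cd209c and Cd209d were found in 1 cell.

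Genes known from type 1 dendritic cells were lower than in the Xcr1/Clec9a cells for 9 of 11 tested and higher for none, with a median log2 fold change of -2.74. Irf8, the transcription factor on which type 1 cells depend, stood at 142, 41.8 and 86.3 CPM against 881 CPM (edgeR adjusted p = 2.58e-12). That is near the 111 CPM of Cd3-positive cells. The lysosomal amidase Naaa stood at 248, 265 and 173 CPM against 1127 CPM (edgeR adjusted p = 6.17e-11), and Rab7b, a vesicle GTPase, at 23.1, 13.9 and 57.6 CPM against 375 CPM (edgeR adjusted p = 4.27e-10). The adhesion molecule Cadm1 had 3 counts, all at 20 months, and the double-stranded RNA receptor Tlr3 had 4. Besides Tlr3 and Cadm1, the lowest genes were Txndc16, Anpep, Ffar4, St3gal5, Klk1 and Rasgrp3, each at 0 to 14.4 CPM in every library of the Cd209a cells. Of 6 plasmacytoid dendritic cell markers tested, Siglech, Ccr9 and Klk1 were lower in the Cd209a cells than in the Xcr1/Clec9a cells and none was higher. Siglech stood at 242 CPM there and had 13 counts in 3 Cd209a cells, all at 4 months, of which 1 cell held 11. It was also called higher than in the other 3 groups, and those 3 calls ended without the 4-month library. Klk1 was no longer called with the wider limits. Against the C1q-high cells 4 of the 6 markers were higher, Spib, Ly6d, Siglech and Tcf4, and none lower, with a median log2 fold change of 2.77. Against the F13a1/Vcan/Hp cells Spib, Ly6d and Siglech were higher and none lower, with a median of 2.64, and against the Fscn1/Ccr7 cells Ly6d, Siglech and Tcf4 were higher and Spib lower, with a median of 1.60. Tcf4, a transcription factor on which plasmacytoid cells depend, stood at 344, 237 and 302 CPM against 127 CPM in the C1q-high cells. Ly6d had 22 counts in only 2 of the 57 cells, 17 in 1 cell at 4 months and 5 in 1 cell at 20 months. Spib had 8 counts in 5 cells. The Ly6d calls, that of Tcf4 against the C1q-high cells and that of Spib against the Fscn1/Ccr7 cells ended without the 4-month library. The last also ended without the 20-month library, and that of Spib against the C1q-high cells ended without the 12-month library.

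Against the mature Fscn1/Ccr7 cells, 13 of 15 genes known from the mature state were lower and none higher, with a median log2 fold change of -5.23, or -4.14 with the 4 genes that had no counts in the Cd209a cells set to 3 counts. Nudt17 and Cacnb3 had no counts in the Cd209a cells, against 474 and 338 CPM, and were at least 70.1-fold and 50.1-fold lower. Il12b, a chain of interleukins 12 and 23, had 4 counts, all at 4 months, against 1168 CPM (edgeR adjusted p = 2.71e-18). The chemokine Ccl5 stood at 396, 530 and 475 CPM against 11361 CPM (edgeR adjusted p = 2.55e-24), below the 3357 CPM of Cd3-positive cells. The other named genes lower in this comparison, H2-M2, Adcy6, Cacna1s, Dnajc12, 1810064F22Rik and Gm16685, had no counts in any Cd209a cell. In the other direction, Clec10a and Cd209d had no counts in the Fscn1/Ccr7 cells and were at least 48.9-fold and 18.6-fold higher. Bcl11a, the lipid transfer protein Gm2a, the creatine kinase Ckb, Ctnnd2, the inhibitory receptor Cd300a and Ifitm6 were higher too. Gm2a, for example, stood at 892, 781 and 1050 CPM against 54.8, 76.8 and 58.8 CPM (log2 fold change 3.65, edgeR adjusted p = 3.09e-15).

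Genes known from monocytes and macrophages were mostly lower than in the F13a1/Vcan/Hp and C1q-high cells, which were chosen by such genes. Of 18 tested, 16 were lower and none higher than in the F13a1/Vcan/Hp cells, with a median log2 fold change of -2.13, and 13 were lower and none higher than in the C1q-high cells, with a median of -1.92. Lyz2 stood at 3812, 4337 and 1381 CPM against 23231 CPM in the F13a1/Vcan/Hp cells (edgeR adjusted p = 1.7e-11). It stood at 3201 CPM in Cd3-positive cells. Chil3, a chitinase-like protein of inflammatory monocytes, stood at 33.0, 55.8 and 14.4 CPM against 1057, 1104 and 1008 CPM (log2 fold change -5.09, edgeR adjusted p = 2.16e-15). Compared with the Xcr1/Clec9a cells, 7 of the same 18 genes were higher and none lower. Among those was Ccr2, the receptor by which monocytes leave the bone marrow, at 562, 404 and 576 CPM against 140 CPM (edgeR adjusted p = 2.4e-07). In Cd3-positive cells Ccr2 stood at 463 CPM. Fcgr1, the high-affinity antibody receptor of monocyte-derived cells, stood at 433, 265 and 302 CPM, above 173 CPM in the Xcr1/Clec9a cells (edgeR adjusted p = 0.000737) and below 987 CPM in the F13a1/Vcan/Hp cells (edgeR adjusted p = 6.95e-09). The Cd3-positive cells held it at 235 CPM, and what part of the level in Cd209a cells came from free RNA was not tested. Trem1 and Trem2, the receptors of macrophages that the study names in its title, had 8 and 6 counts over the 57 cells, and both were called lower than in the F13a1/Vcan/Hp cells. The call of Trem1 ended without the 4-month library and that of Trem2 when any 1 library was left out.

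The 16 genes named by size of difference from these 2 groups overlapped on the higher side. Clec10a, Bcl11a, Cd7, Ctnnd2, Cd209d and Tnni2 were among the 8 highest against both, joined by Tiam1 and Fyn against the C1q-high cells and by Apod and Ifitm1 against the F13a1/Vcan/Hp cells. Apoe, the lipid carrier of macrophages, stood at 109, 126 and 259 CPM against 2401, 3137 and 4415 CPM in the C1q-high cells (log2 fold change -4.45, edgeR adjusted p = 5.41e-20). Ms4a7, C3ar1, Rnase4, Hes1, Rab20, Tmem171 and Tmem119 were the other lowest genes there. Rab20, Mgst1, Slpi, Clec4d, Thbs1, Trem3 and Sgms2 were, with Chil3, the lowest against the F13a1/Vcan/Hp cells.

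**Figure D3:**
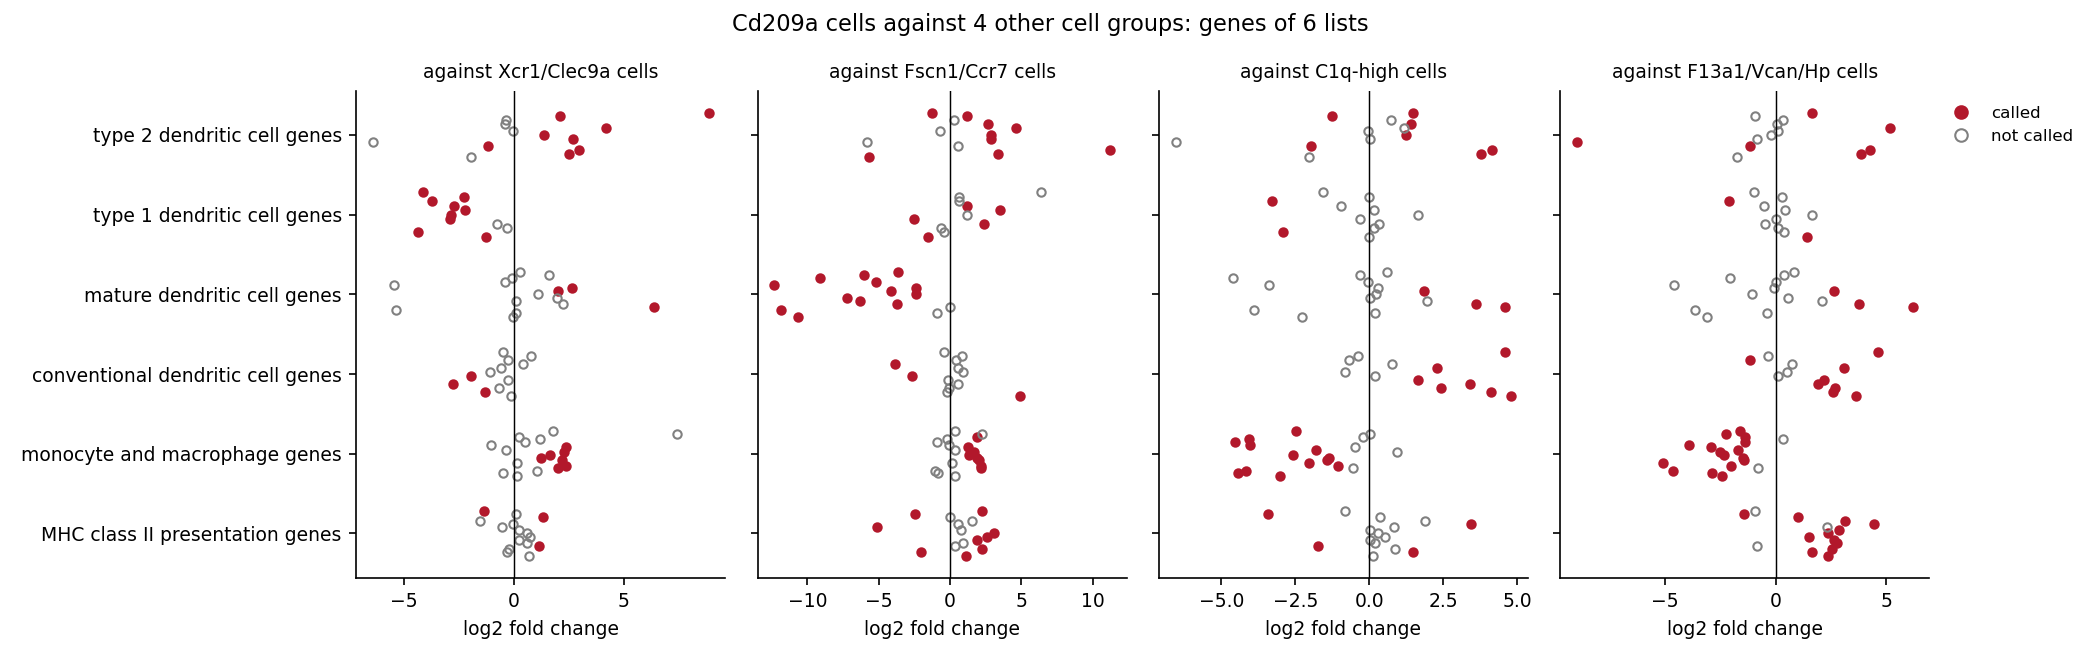
Log2 fold change (horizontal axis) of the genes of 6 lists in Cd209a cells against each of 4 other cell groups, with called genes filled and others open. The type 1 genes lie to the left against Xcr1/Clec9a cells (9 of 11 lower), the mature genes against Fscn1/Ccr7 cells (13 of 15 lower), and the class II genes to the right against F13a1/Vcan/Hp cells (11 of 15 higher). Fitted values of genes with 0 counts on one side depend on the prior count and are not bounds.

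Genes of MHC class II presentation were higher than in the F13a1/Vcan/Hp cells for 11 of 15 tested, and 1, the protease gene Lgmn, was lower, with a median log2 fold change of 2.37. Cd74, the chaperone of class II molecules, stood at 20846, 22271 and 21483 CPM against 3560 CPM (edgeR adjusted p = 2.52e-16), and every Cd209a cell held between 8 and 355 counts of it. H2-Ab1, a class II chain, stood at 7326, 7698 and 8677 CPM against 1089 CPM (edgeR adjusted p = 2.52e-16). Ciita, the master regulator of class II genes, stood at 109, 167 and 216 CPM against 22.2 CPM (edgeR adjusted p = 6.85e-08). Cd3-positive cells held Cd74 at 3406 CPM and H2-Ab1 at 1290 CPM. Against the C1q-high cells only H2-Oa and Cd83 were higher, and the proteases Ctss and Lgmn were lower. Against the Fscn1/Ccr7 cells 6 were higher, among them H2-DMb1 at 1074, 948 and 907 CPM against 103 CPM (edgeR adjusted p = 3.64e-15), and H2-Eb2, Lgmn and Cd83 were lower.

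Among 12 tested ligands that costimulate or restrain T cells, the Cd209a cells were lower than the Fscn1/Ccr7 cells for 5, Cd80, Cd40, Cd274, Pdcd1lg2 and Icam1, and higher for none. Cd274, which encodes PD-L1, stood at 56.2, 69.7 and 71.9 CPM against 343 CPM (edgeR adjusted p = 6.21e-09). Cd86 stood at 525, 251 and 273 CPM against 343 CPM and was not called (edgeR adjusted p = 0.901). Cd40 and Tnfsf9, the ligand of the costimulatory receptor encoded by Tnfrsf9, were higher than in the Xcr1/Clec9a cells and Havcr2 was lower. Tnfsf9 lost this call without the 12-month library, Cd40 without the 4-month library, and Havcr2 without either the 4-month or the 20-month library. Of 23 cytokines and chemokines, 5 were higher than in the Xcr1/Clec9a cells, Il1b, Ccl4, Ccl9, Ccl17 and Cxcl10, and none lower. Cxcl10, a chemokine induced by interferon, stood at 1929, 2134 and 863 CPM against 393 CPM (edgeR adjusted p = 4.95e-09). In Cd3-positive cells it stood at 697 CPM. The call of Ccl17 ended without the 12-month library. Il12a, Il23a and Ccl24 had no counts.

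Of 18 lectins and uptake receptors, 11 were higher and 3, Clec12a, Ly75 and Cd36, lower than in the Xcr1/Clec9a cells. Clec7a, the beta-glucan receptor, stood at 102, 97.6 and 158 CPM against 25.3 CPM (edgeR adjusted p = 0.00944). Without the 4-month library Clec7a was no longer called. Ly75, an uptake receptor of type 1 cells, had 2 counts against 48.3 CPM, and Cd36 had none against 48.3 CPM. Of 6 Toll-like receptor genes, Tlr2 was higher and Tlr3 and Tlr11 were lower than in the Xcr1/Clec9a cells. Of 12 chemoattractant receptors, 5 were higher, among them Ccr1, Ccr2, Cx3cr1 and Ccrl2, and none was lower in that comparison. The calls of Ccrl2 and Tlr2 ended without the 4-month library. Kynu, the kynureninase that acts beside Kmo in tryptophan breakdown, stood at 102, 55.8 and 28.8 CPM and was higher than in the C1q-high cells at 16.4 CPM (edgeR adjusted p = 6.82e-05) and the F13a1/Vcan/Hp cells at 9.87 CPM (edgeR adjusted p = 2.09e-06). Both calls ended without the 4-month library. Ido1 and Ido2, the first enzymes of that pathway, had no counts. Of 18 interferon response genes, 5 were higher and 1, Ifi44, lower than in the Xcr1/Clec9a cells, and 2, Rsad2 and Oasl1, were lower than in the F13a1/Vcan/Hp cells. Of 15 early response genes, which dissociation of tissue can induce, 4 were higher than in the Xcr1/Clec9a cells, Atf3, Zfp36, Jun and Junb, and none lower.

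Markers of other cell types were counted in the same comparisons. None of the 6 T cell markers or 6 NK cell markers tested was called in any of the 4 comparisons. The comparison groups were also chosen with limits on Cd3, Ncr1 and Klrb1c. Similar levels of these markers were therefore in part set in advance. The absence of calls says little about how much T or NK cell RNA the Cd209a cells hold. Trac, a T-cell receptor chain, stood at 99.1, 97.6 and 71.9 CPM in the Cd209a cells and at 945 CPM in Cd3-positive cells. The 1 neutrophil marker tested, Csf3r, was lower than in the C1q-high and F13a1/Vcan/Hp cells. All 5 mast cell and basophil markers and 4 of 9 melanoma and stromal markers had no counts. Ighm, the 1 B cell marker tested, stood at 135, 237 and 230 CPM and was higher than in the Fscn1/Ccr7 cells, at 51.6 CPM (log2 fold change 1.51, edgeR adjusted p = 0.000577), and was not called in the other 3 comparisons. It stood at 203 CPM in Cd3-positive cells. Cd79a and Ms4a1 of the B cell markers had 4 and 5 counts, most of them in the 20-month library, with 1 cell holding 3 of the Cd79a counts. Of 4 cell division genes tested, Stmn1 was lower than in the Xcr1/Clec9a cells and the C1q-high cells, and neither call held without the 4-month library.

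By age, the share of Cd209a cells among all sorted cells was 0.264% in 4-month mice (0.187 to 0.362, exact binomial), 0.0614% at 12 months (0.0281 to 0.117) and 0.0681% at 20 months (0.0327 to 0.125). Relative to the youngest mice the 12-month share differed by -0.203 percentage points (-0.305 to -0.112) and the 20-month share by -0.196 points (-0.299 to -0.104). With the wider limits the shares were 0.604% (0.484 to 0.745), 0.491% (0.385 to 0.618) and 0.300% (0.218 to 0.402). The 12-month difference was then -0.113 points (-0.286 to 0.0576), an interval that includes 0, and the 20-month difference was -0.305 points (-0.465 to -0.152). The position of the 12-month library thus depended on the Cd3 limit, while the 20-month share was below the 4-month share with either limit. As a share of the Cd209a, Xcr1/Clec9a and Fscn1/Ccr7 cells together, the Cd209a cells were 38 of 118 (32.2%), 9 of 41 (22.0%) and 10 of 48 (20.8%). The 12-month value differed by -10.3 points (-23.6 to 6.42) and the 20-month value by -11.4 points (-24.1 to 4.13), and both intervals include 0. With the wider limits they were 28.7%, 25.2% and 17.5%, where the 12-month value differed by -3.54 points (-10.6 to 3.64) and the 20-month value by -11.3 points (-18.0 to -4.20).

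Levels by age were compared over 3219 genes at 50 CPM or more in the counts of the Cd209a cells summed over the 3 libraries, with no test. The 4-month library held 302744 of these 443949 counts, so genes high at 4 months passed this floor more easily. The numbers of higher and lower genes can therefore not be set against each other. At least 2-fold higher than at 4 months were 171 genes at 12 months (5.31%) and 180 at 20 months (5.59%), and at least 2-fold lower were 268 (8.33%) and 315 (9.79%). Scaled by TMM, which moved the median ratio by -0.26 and -0.24 on the log2 scale, the counts were 73 and 95 higher and 448 and 479 lower. The median gene had 33 counts at 4 months and 8 at either older age. The 95% counting interval of the ratio lay above 0 on the log2 scale for 88 of the 171 and 81 of the 180 higher genes, and below 0 for 112 of the 268 and 109 of the 315 lower genes. Among the 2-fold genes, 3 at 12 months and 2 at 20 months had 3 or fewer counts at both ages compared. In the excluded cells, 39 of the same genes were 2-fold higher at 12 months (1.21%) and 54 at 20 months (1.68%), and 21 (0.652%) and 45 (1.4%) were 2-fold lower. Of the 171 and 180 higher genes, 10 and 9 were 2-fold higher in the excluded cells too, and of the 268 and 315 lower genes, 7 and 12. The excluded cells held 462017, 693876 and 298551 summed counts at 4, 12 and 20 months, more than the Cd209a cells in each library. Their ratios thus carried less counting error, and the genes were chosen by level in the Cd209a cells. The lower shares therefore cannot show a difference between these sets of cells.

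**Figure D4:**
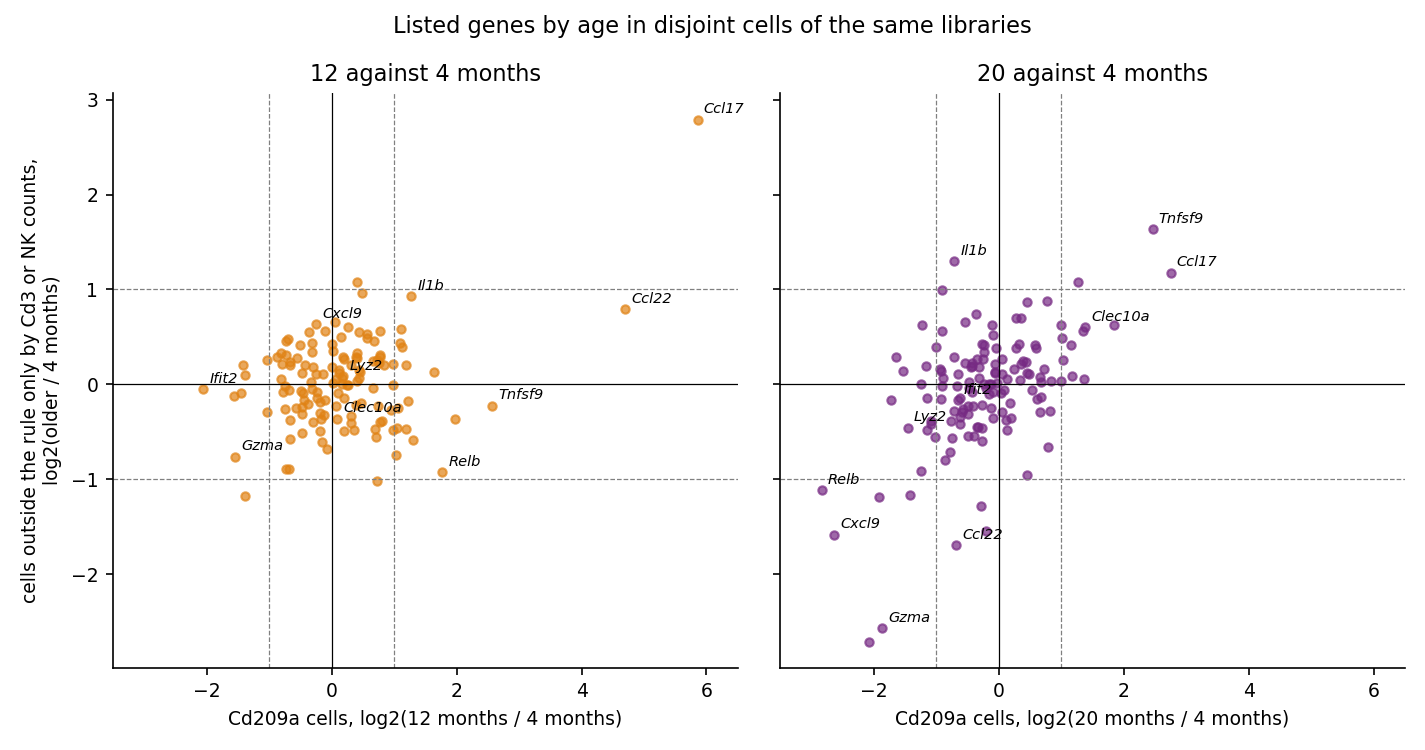
Log2 ratio of the older library to 4 months in Cd209a cells (horizontal axis) and in the excluded cells (vertical axis), for listed genes at 50 CPM or more, with dashed lines at 2-fold. Ccl17 lies past 2-fold on both axes at both ages, Tnfsf9 and Apoe at 20 months and Gzma at 20 months, while Ccl22 and Ifit2 at 12 months are past 2-fold in the Cd209a cells and not in the excluded cells.

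The largest ratios rested on single cells. Of the 20 genes with the highest and lowest ratios, 16 had 50% or more of their counts over the 57 cells in 1 cell, and 11 had 90% or more, against 34 of all 3219 genes (1.06%) at 50% or more. Gm47663 had 41 counts in 1 cell at 20 months, Chrdl1 25 counts in 1 cell at 12 months, and Cyp2c23, Gm12162 and Stxbp5l 65, 64 and 61 counts, each in 1 cell at 4 months. Cdh4, Gm15788, Hs3st5, Rgs20 and Gm45740 had 93.5% to 98.7% in 1 cell. Slc39a11 had 94 counts in 18 cells, of which 74 lay in 1 cell at 12 months, and Osbpl10 49 counts in 15 cells, of which 34 lay in 1 cell at 20 months. Gm37853, Gm12153 and 1700016L21Rik were found in 2, 2 and 4 cells. Gm47854 was found in 6 of the 9 Cd209a cells at 12 months, with 87 counts, and in none at 4 or 20 months. The same gene stood at 2.16, 1578 and 0 CPM in the excluded cells and at 2.49, 1745 and 2.38 CPM in Cd3-positive cells, so it was high at 12 months in each of these groups.

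**Figure D5:**
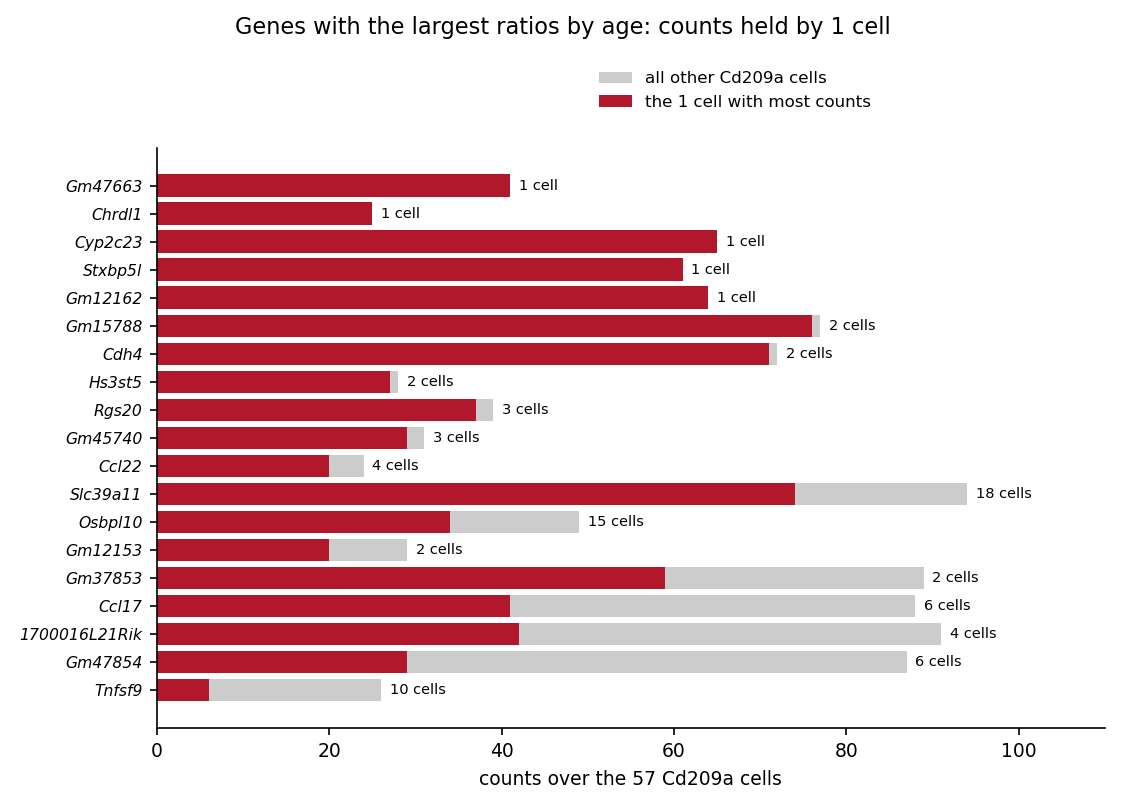
Counts over the 57 Cd209a cells (horizontal axis) of genes with the largest ratios by age, with the part held by the 1 cell with most counts in red and the number of cells with a count beside each bar. Tnfsf9, in 10 cells, and Gm47854, in 6, are spread over several cells, whereas 5 genes are held by 1 cell.

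Chemokines that attract T cells and a ligand of T cells were among the genes with high ratios. Ccl17, a ligand of the receptor Ccr4, stood at 16.5 CPM at 4 months, 1046 at 12 months and 115 at 20 months, from 5, 75 and 8 counts in 2, 3 and 1 cells, and 1 cell at 12 months held 41. On the log2 scale the 12-month library was higher than the 4-month library by 5.86 (4.70 to 7.65) and the 20-month library by 2.75 (1.01 to 4.76). In the excluded cells Ccl17 stood at 12.99, 96.6 and 30.2 CPM, with log2 ratios of 2.79 (1.70 to 4.39) and 1.18 (-0.44 to 2.99). Ccl22, which binds the same receptor, had 21 counts at 12 months, 20 of them in 1 cell, and in the excluded cells stood at 4.33, 8.65 and 0 CPM. Tnfsf9 stood at 23.1, 139 and 130 CPM, from 7, 10 and 9 counts in 3, 4 and 3 cells. Its 12-month log2 ratio was 2.56 (1.05 to 4.22) and its 20-month log2 ratio 2.46 (0.89 to 4.15), against -0.22 (-0.86 to 0.43) and 1.64 (1.07 to 2.25) in the excluded cells. The 20-month value was thus above 2-fold in both sets of cells and the 12-month value was not.

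Of 15 cytokines and chemokines at 50 CPM or more, 5 were at least 2-fold higher at 12 months than at 4 months, Il1b, Ccl17, Ccl22, Il1rn and Il1r2, and Ebi3 was lower, with a median log2 ratio of 0.43. At 20 months Ccl17 and Il1r2 were higher and 6 were lower, Il15, Ebi3, Tgfb1, Cxcl9, Cxcl10 and Il1rn, with a median of -0.68. Over all 3219 genes, 5.31% were 2-fold higher and 8.33% lower at 12 months, and 5.59% higher and 9.79% lower at 20 months. In the excluded cells 1 of the 15 was higher and none lower at 12 months, and 2 were higher and 2 lower at 20 months. Il1b, the precursor of interleukin 1 beta, stood at 766, 1855 and 460 CPM in the Cd209a cells, with median counts per cell of 1.5, 12 and 0.5. Its 12-month log2 ratio was 1.28 (0.96 to 1.59) and its 20-month log2 ratio -0.72 (-1.32 to -0.20). In the excluded cells it stood at 587, 1115 and 1444 CPM, so that the 20-month ratio had the opposite sign, 1.30 (1.08 to 1.52). Cxcl9, an interferon-induced chemokine, was lower at 20 months in both, with 221, 181 and 28.8 CPM in the Cd209a cells (log2 ratio -2.63 at 20 months, -6.02 to -1.03) and 54.1, 85.0 and 16.7 CPM in the excluded cells (-1.58, -3.43 to -0.28). Cxcl10 was lower at 20 months in the Cd209a cells (-1.15, -1.57 to -0.77), where 1 cell held 41 of its 60 counts, and not in the excluded cells (-0.15, -0.37 to 0.08).

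Over all 3219 genes, 5.31% and 5.59% were 2-fold higher at 12 and 20 months, and 8.33% and 9.79% were lower. The next lists are short, so their counts beside these shares are only a description. Of 17 interferon response genes at 50 CPM or more, none was 2-fold higher, 2 were lower at 12 months, Ifit2 and Usp18, and 3 at 20 months, Rsad2, Oasl1 and Oasl2. The median log2 ratios were -0.32 and -0.61, against -0.08 and -0.17 in the excluded cells, where none of the 17 passed 2-fold in either direction. The class II genes varied little. Of 13, Cd83 was 2-fold higher at 12 months and Ciita at 20 months and none was lower, with medians of 0.07 and 0.06. Of 8 type 2 genes, Clec10a was 2-fold higher at 20 months (log2 ratio 1.39, 0.72 to 2.02) and none was lower. In the excluded cells Clec10a stood at 268, 209 and 409 CPM, with a log2 ratio at 20 months of 0.61 (0.23 to 0.98). Lyz2 was lower at 20 months (-1.46, -1.78 to -1.16), where 1 cell held 46 of its 96 counts, and in the excluded cells the ratio was -0.46 (-0.60 to -0.31). Apoe was higher at 20 months in the Cd209a cells (1.27, 0.33 to 2.12) and the excluded cells (1.08, 0.63 to 1.55), and the log2 ratio was 0.94 in Cd3-positive cells and 0.88 in C1q-high cells. Gzma, a granule protease of NK and T cells, was lower at 20 months in the Cd209a cells (-1.86), the excluded cells (-2.57), the Cd3-positive cells (-1.22) and the C1q-high cells (-1.49). What part of the Apoe and Gzma counts in Cd209a cells came from other cells was not tested.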

How the data were processed

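Cell matrices of whole-number counts per gene and cell were deposited by the authors, 1 for each of the 3 libraries. STAR 2.7.10a and the build GRCm38 are named in the submitters' processing notes, with no role given. Cell calling, strand and whether molecules or reads were counted are not given in the sources used here. Of 55401 genes listed, 54349 (98.1%) have their identifier in GENCODE M21. The members, the comparison groups and the 22 gene lists were chosen with earlier results of these data known. Named genes were, per comparison, the 8 highest and 8 lowest called genes at 50 CPM or more in the higher group in every library, by age the 8 highest and 8 lowest ratios at 20 months and the 5 and 5 at 12 months, plus list members. A gene in more than 1 list counts in each.

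Counts were summed per library and group and tested with edgeR 4.0.16 (R 4.3.3) with the library as a block, since the groups of a library share its cells' source. All 5 groups entered the fit, and DESeq2 1.42.0 was an alternative. On simulated data for the comparison with Xcr1/Clec9a cells (5408 genes), 82.3% of 198 genes changed by 2 on the log2 scale were recovered, with 4 false calls. The simulation gave each gene the same mean in all groups apart from the change. Its spread was fixed and not matched to the data, and only genes at 50 CPM or more were changed. These figures are therefore not the recovery or error rate of the real comparison. Ages were compared by CPM with exact Poisson intervals, and log2 ratios with 0.5 counts added and exact conditional intervals at 95%. Differences of shares have Newcombe intervals. Doublets were scored with Scrublet (scanpy 1.11.5) and kept, and removal of the top 6% was an alternative. No cells were removed by any other filter. The wider Cd3 and NK limits were chosen after seeing the data. No sequences are printed. Results on some genes are not reported here.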

Additional observations from a re-analysis of the deposited data

How the results depend on the processing

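With 9 and 10 Cd209a cells in the older libraries and a median gene count of 8, depth limits every value by age. With at most 2 C1q counts allowed, 16, 4 and 5 cells were left, and the shares themselves fell to 0.111%, 0.0273% and 0.0341%. The differences in share from 4 months were then -0.0839 points (-0.155 to -0.0233) and -0.0771 points (-0.149 to -0.0146). With the wider Cd3 and NK limits, chosen after seeing the data, the 20-month difference was -0.305 points. As a share of the 3 dendritic groups the differences were -10.3 and -11.4 points, and with the wider limits -3.54 and -11.3. The causes were not tested.

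The genes 2-fold higher and lower at 12 months numbered 428 and 476 with at most 2 C1q counts, 28 and 13 with the wider limits, 73 and 448 with TMM scaling and 47 and 108 at a floor of 100 CPM. At 20 months they numbered 443 and 490, 22 and 34, 95 and 479, and 46 and 103 in the same order. The limit of 2 C1q counts left only 4 cells at 12 months and 5 at 20 months. The CPM floor was applied anew to each set of cells, so the number of genes tested differed between settings. Only TMM scaling kept the 3219 genes of the main comparison. Of 84 ratios by age of named and listed genes that were at least 2-fold and had over 3 counts at either age compared, 37 stayed at least 2-fold the same way with the wider limits, 38 were under 2-fold and 9 changed sign. Those 9 log2 ratios were, at 12 months, Cd83 -0.0589, Clec4b1 -0.43, Gpr35 -0.22, Il1rn -0.28, Relb -0.34 and Runx3 -0.0585, and at 20 months 1700016L21Rik 0.0728, Egr1 0.26 and Tgfb1 0.0705. With at most 2 C1q counts they were, at 12 months, Cd2 -0.25, Clec4b1 -1.83, Icosl -0.43 and Marcksl1 -1.83.

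Between groups, 6150 genes were tested in the main fit and 10285 with the wider limits. Genes higher and lower with the wider limits numbered 563 and 560 (Xcr1/Clec9a), 1318 and 1100 (Fscn1/Ccr7) and 414 and 659 (F13a1/Vcan/Hp). With only the 2 groups compared in the fit, they were 105 and 134 of 2025 tested for Xcr1/Clec9a and 396 and 405 of 2585 tested for Fscn1/Ccr7. Leaving out 1 library at a time gave 105 to 229 higher and 86 to 176 lower against the Xcr1/Clec9a cells, 337 to 726 and 377 to 625 against the Fscn1/Ccr7 cells, 169 to 369 and 199 to 359 against the C1q-high cells, and 102 to 196 and 211 to 388 against the F13a1/Vcan/Hp cells. The fits without the 4-, 12- and 20-month library tested 3843, 6284 and 6459 genes. Without the 4-month library the fitted log2 value of Siglech was -3.47 against C1q-high cells (edgeR adjusted p = 0.842) and -4.14 against F13a1/Vcan/Hp cells (edgeR adjusted p = 0.8). Siglech had no counts in the Cd209a cells at 12 and 20 months, so these values depend on the prior count. Leaving out the 20-month library gave 3.98 and 3.68. Without the library as a replicate block the counts were 242 and 256, 736 and 653, 368 and 368, and 203 and 373, in the order of the groups above. Of 370 calls of named and listed genes, 359 held without the block, 355 with DESeq2 and 343 with the wider limits. Without the 4-month library 337 of them could be tested, of which 241 held and 94 were lost. The other 2, those of Siglech, took the opposite sign in a fit with no Siglech counts in the Cd209a cells. Without the 12-month library 331 of 364 held and without the 20-month library 339 of 368.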
